A study of Drosophila melanogaster with 3 samples.

Results

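Summits of CG9727-eGFP binding that lay just upstream of a single promoter made up 1450 of the 7896 peaks in the authors' thresholded list (18.4%). A summit is the base of highest signal in a peak. A summit was counted as a member when its nearest transcription start site (TSS) belonged to a protein-coding gene and lay 1 to 500 bp downstream of it on that gene's strand. Summits with a protein-coding TSS of a head-to-head pair within 500 bp were left out, a head-to-head pair being the TSSs of 2 genes that diverge within 1000 bp of each other. The rule used gene models and summit positions, and neither signal nor sequence. The 1450 members lay at 1295 TSSs of 1198 genes. The rest of the list held 382 summits on or downstream of single promoters, 1464 at head-to-head promoters, 248 whose nearest TSS belonged to a non-coding gene, and 4352 with no TSS within 500 bp.

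The fusion protein was mapped by chromatin immunoprecipitation and sequencing (ChIP-seq) in whole embryos of both sexes, collected between 0 and 24 h, from the transgenic strain CG9727-GFP. In this strain an insertion at CG9727 adds enhanced green fluorescent protein (eGFP), and the precipitating antibody recognises GFP, not the native protein. The 3 biological replicates form 1 group, so there is no second condition to compare, and a precipitate without the fusion was not analysed here. The labels do not say that the replicates came from separate embryo collections, and values ± SD over the replicates may therefore measure technical spread. Whole embryos of all ages were pooled, so binding cannot be assigned to a tissue or stage. The files hold peaks and no read counts, and the depth of each replicate is unknown. A control entered only through the authors' peak calls. The authors' IDR list (irreproducible discovery rate, a filter on agreement between replicates) was made from the relaxed lists of all replicates, and each replicate's own list below is the 7896 strongest peaks of its relaxed list.

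A promoter is the stretch around a TSS where RNA polymerase II and the general transcription factors assemble. In Drosophila, promoters of genes that are active in most cells often carry the DNA replication-related element (DRE), bound by Dref, or Motif 1, bound by M1BP, whereas promoters of genes with restricted expression more often carry a TATA box or an initiator. Many Drosophila genes lie head to head and share the DNA between their TSSs. At a single promoter that sharing is absent, so a summit has a clear distance and direction to its TSS.

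The sequences below show both kinds of DNA found at members. Each is the window of 50 bp to either side of the summit, ended 1 base before the TSS where the TSS was nearer, read 5′ to 3′ on the gene's strand from the RefSeq copy of the dm6 assembly. The summit is base 51. In the first 4, which are among the strongest members, capitals mark runs of at least 6 A or T bases. The windows are chr3L:19590563-19590663 on the minus strand for CG14100, chr3R:16280685-16280785 on the plus strand for gish, chr3L:1746720-1746820 on the plus strand for CG13921 and chrX:2137286-2137386 on the minus strand for ph-p.
CG14100: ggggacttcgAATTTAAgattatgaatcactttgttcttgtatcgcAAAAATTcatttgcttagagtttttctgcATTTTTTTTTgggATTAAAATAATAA
gish: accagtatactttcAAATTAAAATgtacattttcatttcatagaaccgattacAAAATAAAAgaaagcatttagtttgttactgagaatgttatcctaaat
CG13921: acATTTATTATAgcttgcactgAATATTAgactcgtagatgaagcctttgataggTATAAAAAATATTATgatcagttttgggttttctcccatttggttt
ph-p: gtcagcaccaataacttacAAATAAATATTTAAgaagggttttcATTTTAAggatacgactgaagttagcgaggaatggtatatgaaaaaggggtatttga
GC content was 27.7%, 24.8%, 30.7% and 32.7% in this order. The next windows carry a promoter word, in capitals, close to the summit. The DRE word TATCGATA stands at eEF1gamma (chr3R:29220111-29220171 on the plus strand), which encodes a subunit of translation elongation factor 1, and at RpS10b (chrX:19597945-19598030 on the plus strand), which encodes a protein of the small ribosomal subunit.
eEF1gamma: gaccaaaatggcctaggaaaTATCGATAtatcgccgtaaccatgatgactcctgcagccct
RpS10b: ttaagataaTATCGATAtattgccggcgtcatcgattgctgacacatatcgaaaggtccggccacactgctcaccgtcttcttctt
The Motif 1 word GGTCACAC, or its reverse complement, stands at CG43163 (chr3L:8507236-8507336 on the minus strand) and at Rnp4F (chrX:5322697-5322763 on the minus strand), which encodes an RNA-binding protein and whose window also holds the DRE word, in lower case.
CG43163: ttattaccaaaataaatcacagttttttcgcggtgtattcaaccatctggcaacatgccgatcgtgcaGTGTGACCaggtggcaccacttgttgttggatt
Rnp4F: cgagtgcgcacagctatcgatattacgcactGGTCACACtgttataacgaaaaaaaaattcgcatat
The word of Ohler motif 7, CATCNCTA, stands at tin (chr3R:21378736-21378836 on the plus strand), which encodes the homeodomain protein Tinman of heart development, and at wake (chr3R:22673678-22673778 on the plus strand).
tin: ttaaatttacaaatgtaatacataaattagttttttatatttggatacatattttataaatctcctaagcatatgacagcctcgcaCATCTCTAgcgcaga
wake: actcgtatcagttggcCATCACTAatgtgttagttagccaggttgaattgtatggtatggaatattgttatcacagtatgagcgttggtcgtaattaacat
The last window, at RpL23A (chr3L:1668678-1668778 on the minus strand), shows a ribosomal protein promoter without these words and with a single run of 6 A or T bases, at 56.4% GC.
RpL23A: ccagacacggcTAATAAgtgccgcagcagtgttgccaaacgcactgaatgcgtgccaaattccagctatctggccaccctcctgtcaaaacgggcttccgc

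Members spread over the whole upstream window but were not even within it. The median position was −202 bp from the TSS, with quartiles at −316.75 and −104 bp. The replicates' own lists gave medians of −193, −208 and −205 bp, and counts of 1472, 1419 and 1465 members. Of all summits at single promoters, 79.1% lay upstream in the IDR list and 78.6% ± 1.46 in the replicates (SD, n = 3), although the rule's upstream and downstream windows were of almost equal width. The fullest 50 bp bin, from −200 to −151 bp, held 196 members, against 75 in the farthest, from −500 to −451 bp. Going the other way, 164 members lay in the 50 bp before the TSS and 106 summits in the 50 bp that begin at it.

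**Figure D1:**
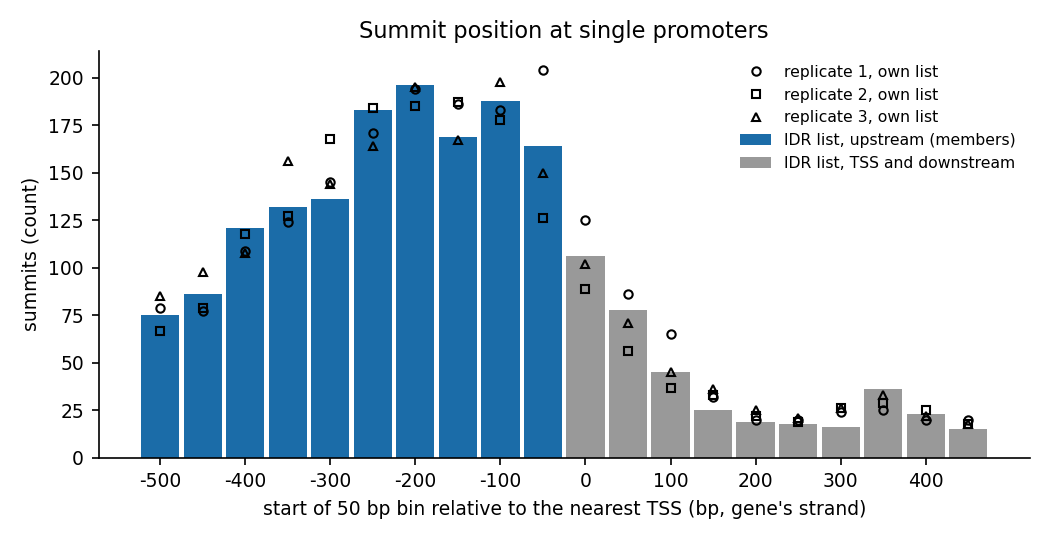
Number of summits at single promoters in bins of 50 bp by position relative to the nearest TSS on the gene's strand (x axis, bp). Bars are the IDR list, with members upstream of the TSS and the 382 other summits at and after it, and open symbols are the 3 replicates' own lists. Members are most frequent between −250 and −51 bp, and summits after the TSS fall off within 150 bp.

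The edges of the rule cut through a continuous spread. Just inside the far edge, the summits of CG42571, mrj and CG7720 lay at −500 bp with signals of 319, 271 and 198, and just outside it those of CG43736 and Syn lay at −507 bp with signals of 1083 and 228. At the near edge, CG10555, waw and Cyt-c-p had summits 1 bp before the TSS with signals of 343, 271 and 258, and Plod and Cln7 had theirs on the TSS, with signals of 291 and 246. There were 75 members between 451 and 500 bp and 55 otherwise eligible summits between 501 and 550 bp.

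Strong members lay near the TSS less often than weak ones, though the positions of both overlapped. Signal is the authors' value per peak, and it is compared here only within a list, by rank or as a ratio to the median of other peaks of that list. The 484 strongest members had a median position of −217.5 bp, and 14.5% of them lay within 100 bp of the TSS. The 484 weakest had a median of −172.5 bp, and 33.1% lay within 100 bp. Quartiles were −319.75 and −146.75 bp for the strongest and −312 and −73 bp for the weakest. When each replicate's own members were split in the same way, 14.7% ± 0.550 of the strongest lay within 100 bp and 31.6% ± 3.73 of the weakest did (SD, n = 3), so the difference in these shares exceeded the spread between replicates. Median positions were less steady, at −217 ± 6.81 bp for the strongest and −181 ± 25.2 bp for the weakest. Read by distance, the 352 members within 100 bp of the TSS had a median signal of 0.799 times that of all members, and 0.825 ± 0.0139 times in the replicates. The 319 members between 201 and 300 bp reached 1.16 times, and 1.13 ± 0.0796 times in the replicates.

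The distance to the TSS also divided the members by sequence. In the window of 50 bp to either side of the summit, median GC content was 43.6% for the 352 members within 100 bp of the TSS, 30.7% for the 684 between 101 and 300 bp and 31.7% for the 414 between 301 and 500 bp. The replicates' own members gave 43.9% ± 0.572, 30.7% ± 0 and 32.0% ± 0.572 for these classes (SD, n = 3). The DRE word occurred at 8.24%, 1.17% and 0.725% of summits in the same order, with replicate means of 7.43% ± 1.18, 1.05% ± 0.0916 and 0.812% ± 0.268. Motif 1 followed the same order, at 4.26%, 0.731% and 0.483%. The sequence TATAAA ran the other way, at 10.8%, 26.3% and 22.9%. GC content also changes with distance at promoters without a summit, as the profile around the TSS shows.

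Upstream of the TSSs with a member, the DNA was poorer in GC than at other single promoters. Between −250 and −201 bp, mean GC content was 34.9% at the 1295 member TSSs (35.1% ± 0.178 in the replicates), against 39.1% at 3269 TSSs with an upstream summit in the pooled relaxed list alone and 38.4% at 8113 TSSs with neither. Together the 3 sets do not cover all 13422 TSSs outside head-to-head pairs. The set with neither, used here and below, may therefore not hold every such TSS. In the 50 bp before the TSS the order changed: member TSSs had 48.2%, those with a relaxed summit alone 47.2% and those with neither 41.7%. From 250 to 299 bp after the TSS the values were 45.5%, 45.6% and 45.8%. Of these 3 sets, member TSSs had the steepest step, 13.3 percentage points between the 2 upstream bins, against 8.13 points at TSSs with a relaxed summit alone and 3.21 points at TSSs with neither.

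**Figure D2:**
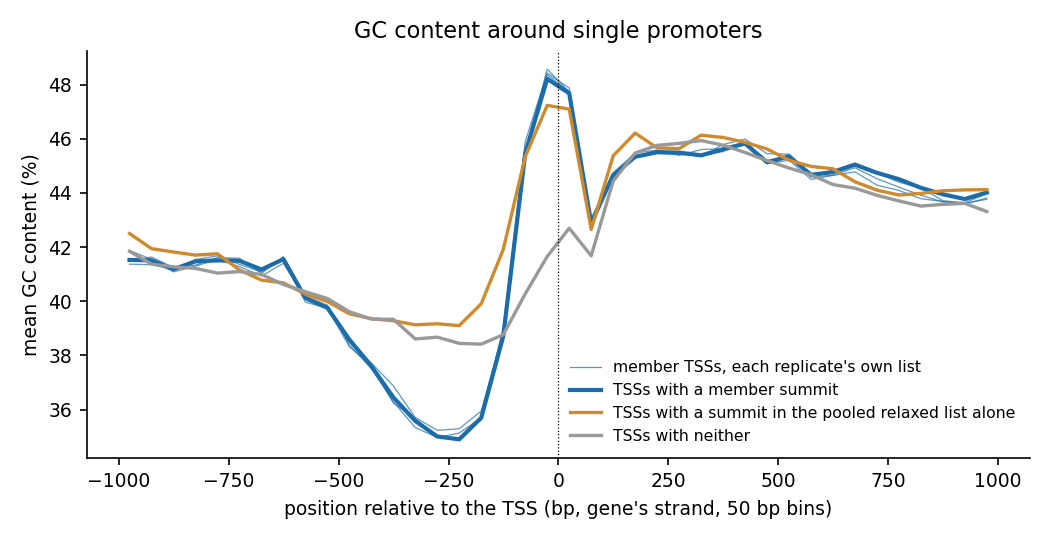
Mean GC content (%) in bins of 50 bp against the position relative to the TSS (bp, on the gene's strand). The thick blue line is the TSSs with a member summit in the IDR list and the thin blue lines those of each replicate's own list, the orange line TSSs with a summit in the pooled relaxed list alone, and the grey line TSSs with neither. Member TSSs dip to 34.9% between −250 and −201 bp and reach 48.2% in the 50 bp before the TSS.

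Centred on the summits, mean GC content was 34.6% at the summit, lowest at 33.4% in the window 50 bp upstream of it, and 47.0% in the window 300 bp downstream. Head-to-head summits had a similar dip, with 34.2%, 31.4% and 48.2% in these windows. Summits downstream of single promoters had 42.1%, 43.6% and 45.3%. GC content at the summit itself was lower at strong members. Median GC content was 29.7% at the 484 strongest, 34.7% at the 482 in the middle and 37.6% at the 484 weakest. Members recovered in each replicate, which are largely the same sites, gave 29.0% ± 0.572, 34.0% ± 0.572 and 36.6% ± 0 (SD, n = 3). GC content can itself alter sequencing coverage, and its part in the authors' signal was not tested.

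Motif words were searched on both strands within 50 bp of the summit and, for comparison, in windows of the same width centred 500 bp to either side. The DRE occurred at 40 members, 2.76% of summits, against 0.138% of flanks. In the replicates' matched summits it occurred at 2.58% ± 0.445, against 0.190% ± 0.0176 of flanks, and was higher at the summit in 3 of 3 replicates. Matched summits are the same sites on the same genome sequence. For motif words, SDs, counts of replicates and p therefore measure the spread of summit calls only. With 3 replicates the exact sign-flip permutation test (2-sided) cannot give a p below 0.25, which was its value here, and no motif difference can pass a threshold of 0.05. Motif 1 occurred at 22 summits, 1.52% against 0.207% of flanks, and Ohler motif 7 at 35, 2.41% against 0.448%. Ohler motif 6, another core promoter word, occurred at 4.69% of summits and 2.48% of flanks. Each of these was higher at the summit in every replicate. By the rule, flank centres lay more than 500 bp upstream of the TSS, or at or after it. The comparison therefore cannot tell a tie to the summit from a tie to the promoter. Within 25 bp of the summit lay 61.0% of DRE matches, 50% of Motif 1, 52.9% of Ohler motif 6 and 62.2% of Ohler motif 7 matches. Over all 14 motif words searched, this share ran from 43.6% to 62.2%, with Ohler motif 7 and the DRE highest. The share that even placement within the window would give was not computed. These shares therefore do not show that a word gathers at the summit. Upstream and downstream flanks each held the DRE in 0.138% of windows, Motif 1 in 0.138% and 0.276%, and Ohler motif 7 in 0.483% and 0.414%. In the other classes, the DRE occurred at 1.05% of summits downstream of single promoters and 5.87% of those at head-to-head promoters, Motif 1 at 1.83% and 3.21%, and Ohler motif 7 at 1.31% and 3.07%. For Motif 1 both of these shares stood above the 1.52% of members. In the whole rest of the IDR list the shares were 1.52% for the DRE, 0.946% for Motif 1 and 1.15% for Ohler motif 7.

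AT-rich words were more frequent at members' summits than in the mean of both flanks, and the TATA, GATA and homeodomain words by less when the upstream flank was taken alone. TATAAA occurred at 21.6% of summits and 11.0% of flanks, and the matched summits of the replicates gave 21.6% ± 1.11 and 11.1% ± 0.326 (SD, n = 3). The A tract AAAAAA occurred at 26.0% and 19.1%, the GATA word GATAA at 24.9% and 18.6%, and the homeodomain core TAATTA at 9.24% and 5.93%. CGATA, the core of the site of the boundary protein BEAF-32, occurred at 17.6% and 13.2%, and it is contained in the DRE word. The downstream flank lies mostly past the TSS, and the flanks differed from each other. TATAAA occurred in 14.6% of upstream and 7.52% of downstream flanks, GATAA in 21.4% and 15.7%, and TAATTA in 7.17% and 4.69%. AAAAAA occurred in 18.4% of upstream and 19.7% of downstream flanks, and CGATA in 13.2% of each. These shares were close to those of the rest of the list for TATAAA (22.3%), AAAAAA (27.1%), GATAA (25.1%) and TAATTA (9.99%), and CGATA occurred at 14.2% of the rest. Since windows at the summit are poorer in GC than their flanks, AT-rich words have more chances there, and the part of this was not tested.

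**Figure D3:**
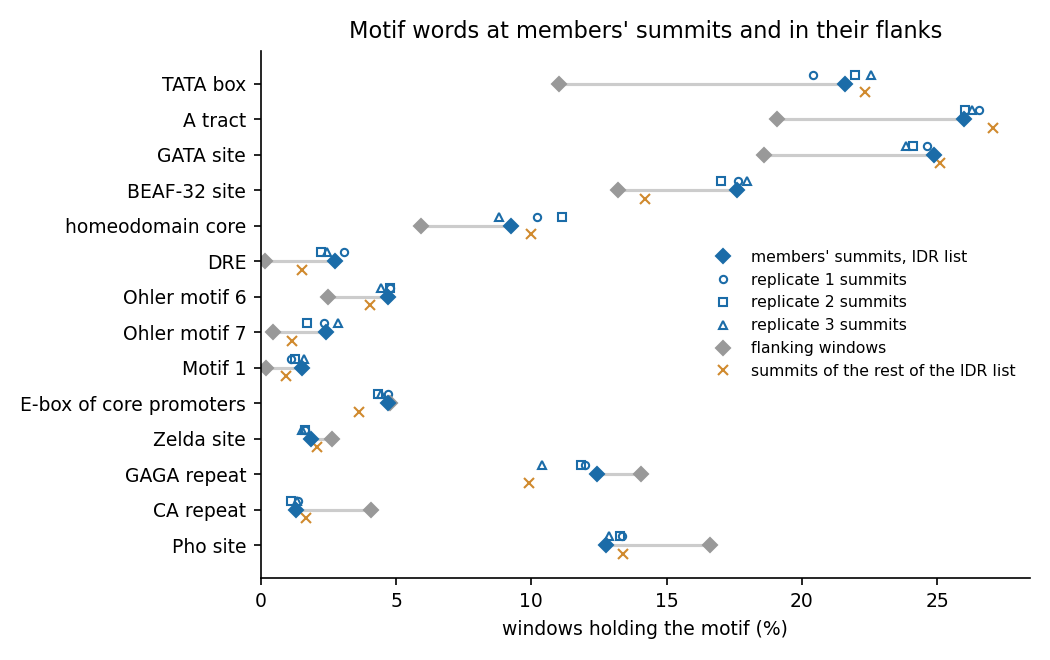
Share of windows (%) that hold each of 14 motif words, ordered by the difference between summit and flanks. Filled blue diamonds are members' summits in the IDR list, open blue symbols their matched summits in each replicate, grey diamonds the flanking windows and orange crosses the summits of the rest of the IDR list. Against the mean of both flanks TATAAA shows the widest gap, 21.6% against 11.0%, although against the upstream flank alone the gap of AAAAAA is wider, and GCCAT and CACACACA lie lower at the summit than in the flanks.

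Other words were less frequent at the summit than beside it. GAGAG, the word of the GAGA factor encoded by Trl, occurred at 12.4% of summits and 14.1% of flanks. GCCAT, the core of the Polycomb recruiter Pho, occurred at 12.8% and 16.6%, CAGGTA, the site of the early activator Zelda, at 1.86% and 2.62%, and the CA repeat CACACACA at 1.31% and 4.07%. All were lower at the summit than in the mean of both flanks in 3 of 3 replicates. In the IDR list they were also below the upstream flank alone, which held GAGAG in 13.5%, GCCAT in 16.1%, CAGGTA in 2.83% and CACACACA in 2.21% of windows. The E-box CAGCTG occurred at 4.69% of summits, between 3.52% of upstream and 6% of downstream flanks.

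Words found at members' summits lay at the following distances from the TSS. DRE words lay at a median of −53.5 bp from the TSS (quartiles −84.5 and −37.5 bp), Motif 1 words at −41 bp and Ohler motif 7 words at −87.5 bp. TATAAA words lay at a median of −224 bp (quartiles −329 and −148.75 bp) and GAGAG words at −196 bp, close to the members' own median of −202 bp. The search was limited to windows at summits, so these distances follow in part from where the summits lay. A TATA box in the place where it works, between −45 and −15 bp, was present at 3.71% of member TSSs (3.84% ± 0.354 in the replicates), against 5.51% of TSSs with a relaxed summit alone and 11.4% of TSSs with neither. Mean GC content in the 50 bp before the TSS also differed, at 48.2%, 47.2% and 41.7%, and its part in these shares was not tested. The initiator word TCAGT, between −5 and 5 bp, was found at 12.4%, 13.7% and 8.25% in the same order. Between −250 and −1 bp, Ohler motif 7 was found at 5.25% of member TSSs (4.92% ± 0.114), against 2.48% and 1.96%, while the DRE was found at 5.87% of member TSSs and at 5.72% of those with a relaxed summit alone, against 2.69% of those with neither. GAGAG occurred at 43.6%, 41.1% and 27.7%. These traits were not particular to members. The 368 TSSs with a summit downstream, a set that may share TSSs with the members, had a TATA box in 4.08%. In the 250 bp before these TSSs the DRE was found at 7.88% and Motif 1 at 6.25%, against 5.87% and 3.55% of member TSSs. Ohler motif 7 was found at 4.35% of them and GAGAG at 43.2%. The 1.05% given above for the DRE holds only for windows at the downstream summits.

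Words differed in how they were spread over strong and weak members. Motif 1 occurred at 0.207% of the 484 strongest summits, 1.87% of the 482 in the middle and 2.48% of the 484 weakest, and the DRE at 2.07%, 2.70% and 3.51%. TATAAA occurred at 29.3%, 16.4% and 19.0% in the same order, with no steady trend. Ohler motif 7 occurred at 2.27%, 2.07% and 2.89%. These shares come from the IDR list, with no replicate error.

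The signal of members exceeded that of the rest of the list. In the IDR list the median was 321 for members and 276 for the rest, a ratio of 1.16. The replicates' own lists gave ratios of 1.13, 1.21 and 1.16 (mean 1.17 ± 0.0384, SD, n = 3, exact sign-flip permutation p = 0.25). In the IDR list, the 4352 summits with no TSS within 500 bp, most of the rest, had a median of 266. Head-to-head summits and those nearest a non-coding TSS had medians of 314 and 316. Head-to-head summits also exceeded all other summits, 1.14 times in the IDR list and 1.16 ± 0.0632 times in the replicates. Members stood above summits downstream of single promoters by 1.39 ± 0.0546 times (exact p = 0.25), and in 3 of 3 replicates. Against head-to-head promoters the ratio was 1.01 ± 0.0212, with values on both sides of 1 (exact p = 0.75). Of the members, 238 (16.4%) were among the 789 strongest peaks of the list, against 4.71% of summits downstream of single promoters, 11.5% of those at head-to-head promoters and 14.5% of those nearest a non-coding TSS. In the replicates these shares were 15.8% ± 0.893, 5.10% ± 1.20, 11.8% ± 1.90 and 13.9% ± 1.56. Of summits with no TSS within 500 bp, 7.56% were among these strongest peaks in the IDR list.

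**Figure D4:**
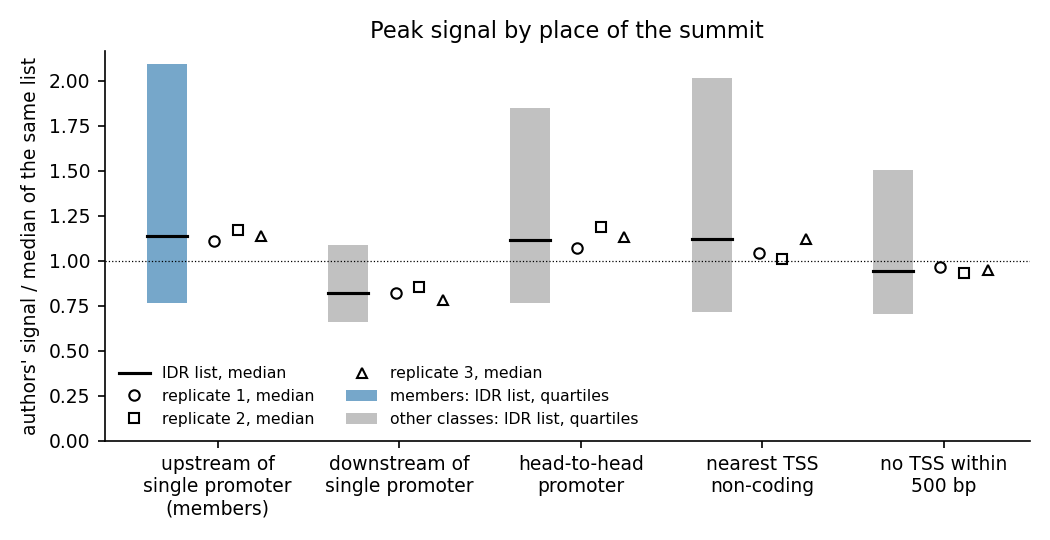
Authors' signal divided by the median of the same list (y axis) for members and the 4 other places of a summit. Bars span the quartiles in the IDR list with a line at the median, and open symbols are the medians in the 3 replicates' own lists. Members, head-to-head summits and summits nearest a non-coding TSS lie above 1 in every list. Summits downstream of single promoters and those with no TSS within 500 bp lie below 1 in every list.

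Members were found again in most replicates. A member was counted as recovered where a replicate's own list had a summit within 100 bp. Replicate 1 recovered 1235 members (85.2%), replicate 2 1175 (81.0%) and replicate 3 1259 (86.8%). The mean was 84.3% ± 2.98 for members and 82.4% ± 3.04 for the rest of the list, a difference of 1.98 ± 0.236 percentage points (exact sign-flip permutation p = 0.25) with members higher in 3 of 3 replicates. When any peak of a replicate's relaxed list could match, the difference turned to −0.221 points. All replicates recovered 950 members (65.5%), and 62.5% of all IDR peaks were recovered in all replicates. Members exceeded summits downstream of single promoters by 10.3 ± 5.60 points, higher in 3 of 3 replicates (exact p = 0.25), and differed from head-to-head summits by 0.602 ± 1.46 points (exact p = 1). The IDR list was itself made from these replicates, so recovery describes agreement and is no separate check.

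Recovery followed strength closely. The 484 strongest members, with signals of at least 470, were recovered at 97.6% ± 1.02, the 482 in the middle at 93.2% ± 2.39 and the 484 weakest at 62.3% ± 5.88 (SD, n = 3). In the weakest class 104 members (21.5%) were recovered by all replicates. Of all members, 339 were recovered in 2 replicates, 141 in 1 and 20 in none. Across members with a summit within 100 bp in the relaxed lists of both replicates of a pair, the signals had a Spearman rho of 0.838 between replicates 1 and 2 (1289 members), 0.867 between 1 and 3 (1334) and 0.872 between 2 and 3 (1304), and the rest of the list had 0.760, 0.799 and 0.818. Matched summits lay a median of 22 to 27 bp apart. At the level of genes, 880 genes had a member in all replicates' own lists, and 873 of these were among the 1198 genes of the IDR list (72.9% of the IDR genes and 99.2% of the 880).

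The 20 strongest members held their rank in every replicate, none falling below rank 80. Their summits lay between −481 and −89 bp from the TSS, with a median of −189 bp. Window GC content ran from 15.8% to 32.7%, with a median of 25.2%, and 0 of the 20 windows held the DRE, Motif 1 or Ohler motif 7. The strongest was upstream of an internal TSS of px, which encodes the wing vein regulator Plexus, at −205 bp, with a signal of 1972 in replicate 1, 1243 in replicate 2 and 1964 in replicate 3. These were ranks 1, 2 and 3, since signal scales differ between lists. CG14100 ranked 9, 4 and 6, and Fkbp14, which encodes a peptidyl-prolyl isomerase, 13, 11 and 10.

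Further down the 20 strongest members, the summit at gish, which encodes a casein kinase, lay at −154 bp and ranked 18, 25 and 14 in replicates 1 to 3. That at ph-p, which encodes the Polycomb complex subunit Polyhomeotic, lay at −481 bp and ranked 21, 13 and 20. Next came larp, which encodes an RNA-binding protein, at −329 bp and ranks 27, 27 and 24. The summit at cu, the gene for a Nocturnin-like protein, lay at −287 bp in the window of lowest GC content among the 20 (15.8%), and ranked 49, 26 and 22. The remaining members of the 20 were those of Tina-1, CG1888, CG13921, CG18549, aay (phosphoserine phosphatase), CG3961, SLC5A11 (a transporter), CG31145, Drat, RluA-1, CG1142, CG1907 and C1GalTA (a galactosyltransferase).

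Members recovered poorly despite high signal were few. Among members in the stronger 3948 peaks of the list, 7 were recovered in at most 1 replicate. The strongest was at numb, which encodes an inhibitor of Notch signalling, at −259 bp with rank 207 in the IDR list and 218 in replicate 3. The nearest summits of replicates 1 and 2 lay 115 and 116 bp away and matched another member of numb, at −58 bp, where they ranked 222 and 176. At CG31886 (rank 346) the nearest summits of replicates 1 and 2 both lay 176 bp away, against 5 bp in replicate 3. Another member of CG31886, at −286 bp, was recovered in all 3 replicates, with ranks 333, 373 and 518. The strongest members recovered in no replicate were at Nrt (−100 bp, rank 5422), which encodes the adhesion protein Neurotactin, and sNPF (−201 bp, rank 5496), which encodes a neuropeptide. The 5 weakest members, at CG11601, chk, Crtc, CG4829 and mRpL9, ranked between 7844 and 7885.

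Most members lay between genes and at the outermost TSS. Outside every annotated gene there were 790 members (54.5%), with a median of 1022 bp to the next gene upstream, and that gene was on the same strand in 71.8% of cases. At the outermost TSS of the gene there were 944 members, and 506 (34.9%) lay inside their own gene, upstream of an internal TSS. Within another gene there were 80 on the same strand and 130 on the opposite strand, and these places can overlap. An exon of any transcript held 127 members and a coding exon 2. At the outermost TSS lay 74.4% of members within 100 bp, 66.4% of those between 101 and 300 bp and 55.1% of those between 301 and 500 bp.

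Some promoters had more than 1 member. There were 225 genes with at least 2, which together held 477 members, and 155 TSSs with 2. Neighbouring members at the same TSS were a median of 203 bp apart, never closer than 199 bp, and 130 of 155 such pairs (83.9%) were within 10 bp of that median. The whole IDR list showed the same spacing: its closest summits were 199 bp apart, and 792 of 1012 neighbouring summits within 500 bp (78.3%) had it too. Members of such a pair share a promoter and are not independent. At Tina-1 the stronger summit, at −179 bp, had signals of 1258, 883 and 1300 in replicates 1 to 3, and the weaker, at −381 bp, had 173, 75.2 and 215. At CG1888 the pair lay at −251 and −452 bp, and larp had 4 members at 3 TSSs.

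Of 9654 genes with at least 1 protein-coding TSS outside head-to-head pairs, 1198 (12.4%) had a member. The replicates' own lists gave 12.5% ± 0.153 (SD, n = 3). All 9654 are called single-promoter genes here, although they can have several TSSs. The share grew with the number of annotated TSSs. It was 7.92% for genes with 1 TSS, 17.4% with 2, 26.9% with 3 and 41.6% with 4 or more, with replicate SDs of 0.223, 0.522, 0.502 and 0.842 percentage points. Genes with more TSSs have more windows to be counted in, and per TSS the shares were 7.92%, 10.1%, 12.2% and 13%. Genes with 1 TSS made up 44.9% of member genes and 73.9% of the other single-promoter genes. By chromosome arm the share was 15.4% ± 0.128 on X in the replicates, against 11.7% ± 0.562 on 2L, 11.9% ± 0.230 on 2R, 11.9% ± 0.240 on 3L and 12.1% ± 0.311 on 3R. On the small chromosome 4, 5 of 66 genes (7.58%) had a member.

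Genes for cytoplasmic ribosomal proteins had the highest share of the 18 gene lists examined. A member was present at 18 of the 42 that are single-promoter genes (42.9%, replicates 47.6% ± 6.30), beside 12.4% of all single-promoter genes. Taking the strongest member of each gene, 17 of the 18 lay within 100 bp of the TSS, at a median of −30.5 bp, beside 24.6% of all 1198 genes. Their median GC content was 46.5%, beside 31.7% for the strongest members of all genes. Counting every member of these 18 genes, 17 of 22 lay within 100 bp, since RpL27A, RpS26, RpS23 and RpL37-1 each had another farther upstream. RpL23A, at −74 bp, had signals of 483, 365 and 539 in replicates 1 to 3. RpS10b, at −36 bp, had 461, 341 and 539, and RpL24, at −8 bp, had 401, 333 and 424. All 3 replicates recovered 17 of the 18, RpLP2 at −149 bp having no match in replicate 3.

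Other lists of protein synthesis, and those of the proteasome, oxidative phosphorylation and splicing, had lower shares than cytoplasmic ribosomal proteins. Translation factors had 6 of 31 (19.4%, replicates 15.1% ± 1.86), led by eEF1gamma at −11 bp with signals of 559, 467 and 682, and eEF1alpha1 at −20 bp and eIF2beta at −225 bp followed. Aminoacyl-tRNA synthetases had 2 of 11, AspRS-m and AlaRS, with replicate shares of 6.06% ± 5.25. Mitochondrial ribosomal proteins had 2 of 15, mRpL19 and mRpL9, with a replicate share of 6.67% in each. Proteasome subunits had 2 of 26, Rpn11 and Rpn12, and subunits of oxidative phosphorylation 2 of 46, Cyt-c-p and UQCR-C2. Splicing factors had 0 of 6.

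Signalling, Polycomb and Trithorax, heat shock and neuroblast lists each had shares above the overall 12.4% in the IDR list and in every replicate. Signalling genes had 16 of 52 (30.8%, replicates 27.6% ± 2.22) at a median of −242 bp, led by spi, the EGF receptor ligand Spitz, at −207 bp and ranks 269, 148 and 176, then numb, and aos, the secreted inhibitor Argos of that receptor, at −250 bp and ranks 214, 273 and 352. Polycomb and Trithorax group genes had 7 of 22 (31.8%, replicates 34.8% ± 2.62), led by ph-p and followed by osa, of the Brahma remodelling complex, and Trl. Heat shock protein genes had 7 of 22 (31.8%, replicates 28.8% ± 6.94), with the small heat shock genes Hsp27 at −156 bp, Hsp26 at −91 bp and Hsp22 at −434 bp in front. Neuroblast and proneural genes had 9 of 30 (30.0%, replicates 24.4% ± 10.7), with numb, mira and insc, which act in the asymmetric division of neural stem cells. Only 2 of the 9 were recovered in all 3 replicates, and numb was recovered in 1 and insc in 2. Lists can share genes: numb is also a signalling gene here, and grh and Trl also count as insulator and promoter factors.

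Cell cycle and replication genes had 7 of 28 (25%, replicates 26.2% ± 4.12). CycE, which encodes cyclin E, had a summit at −482 bp with ranks 184, 216 and 266, Dp, the partner of E2F, had one at −279 bp, and BubR1, of the spindle checkpoint, one at −140 bp. Insulator and promoter factor genes had 4 of 14, namely lola, BEAF-32, Trl and grh, with replicate shares of 26.2% ± 8.25. Homeotic genes had 2 of 8, Dfd at −365 bp and Antp at −349 bp, and each replicate's own list also gave 25%. Segmentation genes had 4 of 31 (12.9%, replicates 17.2% ± 4.93), with bcd, oc, Dll and en. Ecdysone response genes had 3 of 19 (15.8%), Eip75B, shd and Hr3, against a replicate share of 8.77% ± 3.04, and none of these was recovered in all replicates.

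Cuticle protein and chemosensory genes had the lowest shares of the lists with any member. Cuticle protein genes had 1 of 110, Cpr67Fb (0.909%, replicates 0.606% ± 1.05). Among genes for chemosensory receptors and odorant-binding proteins, 3 of 195 had a member, Obp99b, Or88a and Obp83g (1.54%, replicates 1.37% ± 1.07). The lists also differed in TSSs per gene, beside a mean of 1.49 for all single-promoter genes. Means were 1.81 for cytoplasmic ribosomal proteins, 1.09 for cuticle proteins and 1.15 for chemosensory genes. They were highest for ecdysone response (2.74), homeotic (2.38), Polycomb and Trithorax (2.27), signalling (2.19) and insulator and promoter factor genes (2.07). The part of these differences in the shares was not tested. In all, 13 of the 18 lists lay above 12.4% in the IDR list, and 10 lay above the overall share in every replicate. The other 8 lay below it in every replicate, among them mitochondrial ribosomal proteins, aminoacyl-tRNA synthetases and ecdysone response genes, which lay above it in the IDR list. A gene of several TSSs counts once here.

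**Figure D5:**
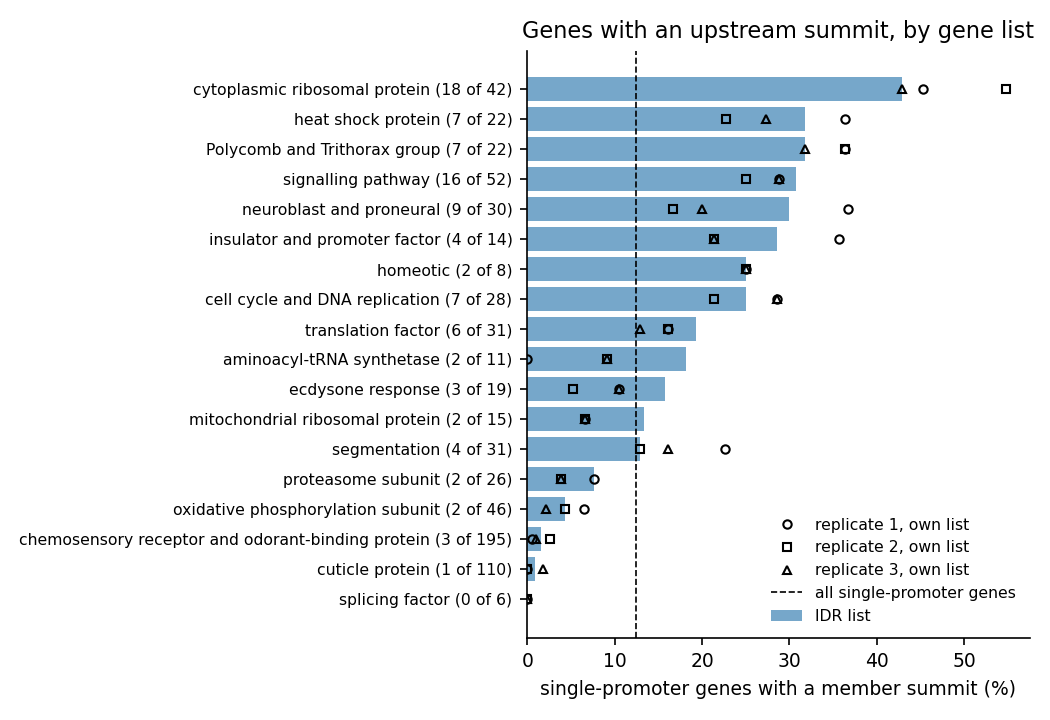
Share of single-promoter genes with a member summit (x axis, %) in 18 gene lists, with the number bound of the number in the list beside each name. Bars are the IDR list, open symbols the 3 replicates' own lists, and the dashed line marks 12.4%, the share of all single-promoter genes. Cytoplasmic ribosomal protein genes reach 42.9%, and cuticle and chemosensory genes stay under 3% in every list.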

How the data were processed

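The labels describe relaxed peak lists that the authors made for each of the 3 replicates and for all replicates pooled, with a control, and an IDR list derived from them on dm6. For the aligner, the peak caller and the IDR threshold, the labels and files used here name nothing. The authors' signal, a deposited −log10 q and a summit offset accompany every peak. Signal served to rank peaks inside 1 list. All 4 relaxed lists stop at 30000 peaks, so their length says nothing of depth.

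Summits were assigned to Ensembl release 115 gene models on arms 2L, 2R, 3L, 3R, 4 and X, with TSSs at the same base of a gene counted once. Sequence came from the RefSeq copy of the dm6 assembly. Members, gene lists and motif words were chosen with earlier results of these data known. Motifs were matched as exact words on both strands. Genes named are the 20 strongest members, the leading members of each gene list and motif, those nearest the rule's edges, the strongest recovered nowhere, those with several summits and the 5 weakest; those of high signal and poor recovery, RpLP2, grh and en were chosen after their values were seen. Windows that could not be shown were replaced by those of the next strongest member of the same kind. Differences over the 3 replicates were tested by exact sign-flip permutation (2-sided, smallest p 0.25). Python 3.11.15, pandas 2.3.3 and numpy 2.4.6 were used, and the code was tested on simulated data. Alternatives covered windows, head-to-head limits, RefSeq TSSs, match distances, strength and each replicate left out, without making the IDR list again. The lists hold no read counts, so no counting interval is given.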

Additional observations from a re-analysis of the deposited data

How the results depend on the processing

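No paired comparison between conditions was possible because there is 1 group. The sign-flip tests instead paired values within each replicate. Of 177 alternatives, 158 kept their direction or stayed within 1 SD, or within 1.5 times for the number of members. Leaving 1 replicate out meant keeping the IDR peaks that both other replicates recovered, so members could only be lost. The IDR list itself was not made again from fewer replicates. The 1450 members became 726 with a TSS window of 200 bp, 1728 with 1000 bp, 825 among the 3948 strongest peaks, 1731 and 1242 with head-to-head limits of 500 and 2000 bp, and 1024 to 1107 with 1 replicate left out. The upstream share (79.1%) was 73.9% with the 200 bp window, 87.4% among those peaks, 77.1% in replicate 1 and 82.4% to 83.9% with 1 replicate left out. The median position was −214 bp among those peaks, −202 to −207 bp with RefSeq TSSs, matched summits or 1 replicate left out, and −193 to −208 bp in the replicates' own lists. The signal ratio was 1 by −log10 q, a column in which most peaks share its highest value. The difference in recovery was −0.221 points when all relaxed peaks could match, against 1.98 points. Of the 14 motif words, 13 kept their direction in all alternatives. The exception was the E-box, higher at the summit by 0.414 points with 100 bp to either side, and 0 points apart in replicate 2. The share of genes with a member (12.4%) was 7.51% among those peaks, 26.6% with the pooled relaxed list, 12.6% in replicate 1 and 9.48% to 10.1% with 1 replicate left out. The cause of these shifts was not tested. Depth is unknown, so what it limits cannot be given.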
